A study of Arabidopsis thaliana with 16 samples.

Results

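Transcripts of 10 Arabidopsis thaliana genes of fermentation, sucrose cleavage and the metabolism around them were followed in 16 seedling libraries. The genes were ADH1, PDC1, PDC2, SUS1, SUS4, HB1, PFK6, NIP2;1, LDH1 and ALAAT1, taken by their locus identifiers from a table of 33602 genes. All 10 were among the 20756 genes kept by a filter that asked for 10 normalized counts or more in 4 or more libraries. They were chosen with results of these same libraries in view, so their levels and differences are a description, and where the text says that the fit over all genes called one of them, this places the gene among all genes tested and is no independent evidence. The gene lists set beside the 10 genes were also chosen with earlier results known, and their calls are read in the same way. Wild type was compared with a homozygous line that carries ATML1pro:GR-SPCH1-4A-YFP, called the inducible line here. There the ATML1 promoter, active in the epidermis, drives SPCH1-4A, a form of the stomatal lineage factor SPEECHLESS (SPCH), joined to a glucocorticoid receptor domain and to yellow fluorescent protein, and dexamethasone lets the fusion enter the nucleus. Both lines had 2 days in the cold as seed and then grew in liquid MS medium with 1% sucrose, turned at 90 rpm, and were 7 days past germination at treatment. The 4 groups were untreated wild type at 0 h, wild type 12 h after 100 µM dexamethasone, the untreated inducible line at 0 h, and the inducible line 12 h after 100 µM dexamethasone, with 4 libraries in each. No untreated group at 12 h was analysed here, so dexamethasone and elapsed time changed together in both lines, and the labels name no second transgenic line.

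Fermentation lets plant cells go on making ATP by glycolysis when respiration is short of oxygen. Pyruvate decarboxylase (PDC1, PDC2) turns pyruvate into acetaldehyde and alcohol dehydrogenase (ADH1) turns acetaldehyde into ethanol, which regenerates NAD+. Lactate dehydrogenase (LDH1) does the same with lactate as its product, and NIP2;1, a channel of the NIP family, carries lactic acid across membranes. Sucrose synthases (SUS1, SUS4) cleave sucrose with UDP and so spend less ATP than the invertase route, and phosphofructokinase (PFK6) commits sugar phosphate to glycolysis. Alanine aminotransferase (ALAAT1) moves pyruvate into alanine, and the non-symbiotic haemoglobin HB1 scavenges nitric oxide. In Arabidopsis most of these genes belong to the core set that low oxygen induces through group VII ethylene response factors, the RAP2.2 and RAP2.12 family, and submerged or shaken liquid culture is a common setting for that response.

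The promoters of 5 of the genes are shown because these genes moved differently: ADH1, PDC1 and NIP2;1 stood higher in the inducible line at both times, SUS4 stood far above wild type after 12 h, and PDC2 was high in every group. Each sequence is the 300 bases that precede the annotated gene start in the RefSeq annotation of TAIR10.1, read 5′ to 3′ on the gene's strand. Capitals mark matches, on either strand, to AAACCA (the core of the anaerobic element described for the maize and Arabidopsis ADH1 promoters; TGGTTT is the other strand), to a longer form that contains it (AAACCA, any 3 bases, then GC), and to the G-box CACGTG. The ADH1 promoter (chr1:28974955-28975254, plus strand), that of PDC1 (chr4:15954804-15955103, minus strand), that of NIP2;1 (chr2:14515989-14516288, minus strand), that of SUS4 (chr3:15184106-15184405, minus strand) and that of PDC2 (chr5:22312833-22313132, minus strand) read as follows.
ADH1: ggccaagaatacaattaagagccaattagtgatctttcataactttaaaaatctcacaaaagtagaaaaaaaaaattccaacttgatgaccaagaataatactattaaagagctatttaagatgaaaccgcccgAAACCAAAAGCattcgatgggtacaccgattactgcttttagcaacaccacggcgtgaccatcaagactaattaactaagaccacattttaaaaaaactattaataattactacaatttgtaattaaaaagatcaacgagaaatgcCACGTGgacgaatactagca
PDC1: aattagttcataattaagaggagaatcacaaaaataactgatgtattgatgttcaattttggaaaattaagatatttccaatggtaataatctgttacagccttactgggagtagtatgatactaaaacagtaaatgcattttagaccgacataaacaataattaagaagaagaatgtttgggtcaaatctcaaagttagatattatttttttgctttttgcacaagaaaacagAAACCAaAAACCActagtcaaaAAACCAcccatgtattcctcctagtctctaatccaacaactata
NIP2;1: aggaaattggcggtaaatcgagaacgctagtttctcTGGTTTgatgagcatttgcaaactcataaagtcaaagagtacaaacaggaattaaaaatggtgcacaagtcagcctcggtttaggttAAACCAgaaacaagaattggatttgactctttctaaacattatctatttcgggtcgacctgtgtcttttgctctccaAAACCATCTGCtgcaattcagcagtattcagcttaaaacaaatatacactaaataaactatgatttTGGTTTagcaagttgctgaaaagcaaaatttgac
SUS4: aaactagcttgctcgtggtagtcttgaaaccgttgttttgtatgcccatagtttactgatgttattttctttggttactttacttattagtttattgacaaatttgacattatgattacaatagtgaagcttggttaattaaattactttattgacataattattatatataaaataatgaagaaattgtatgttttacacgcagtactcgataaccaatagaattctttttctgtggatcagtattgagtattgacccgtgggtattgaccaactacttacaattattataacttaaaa
PDC2: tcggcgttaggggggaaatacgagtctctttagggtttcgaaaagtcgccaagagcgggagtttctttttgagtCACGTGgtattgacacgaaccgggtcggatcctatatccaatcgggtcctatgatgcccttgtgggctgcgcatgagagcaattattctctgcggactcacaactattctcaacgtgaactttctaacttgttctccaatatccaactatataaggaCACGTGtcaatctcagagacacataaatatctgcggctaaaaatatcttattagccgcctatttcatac

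AAACCA was found in 6 of the 10 promoters, those of ADH1, PDC1, SUS1, NIP2;1, LDH1 and ALAAT1, and in 31.8% of 27443 promoters of the same length. PDC1 held 3 copies within 66 bases of its start, and NIP2;1 held 4 copies. The longer form was found in ADH1, 166 bases upstream as AAACCAAAAGC, and in NIP2;1, 100 bases upstream as AAACCATCTGC, against 0.962% of all promoters. CACGTG was found once in ADH1, 20 bases upstream, and in 2 places in PDC2, 226 and 69 bases upstream, against 7.09% of all promoters. SUS4, HB1 and PFK6 held none of the 3 motifs in this window. A match is a string of letters and was not tested for function.

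Normalized read counts, the deposited unit, are given below as values of replicates 1 to 4 or as mean ± SD (n = 4 libraries). Differences between groups are on the log2(normalized count + 1) scale, with the standard error (SE) of a limma fit over all 16 libraries. SPCH, whose count also takes up reads of the transgene, stood at 63.4 ± 6.26 in wild type at 0 h, 65.7 ± 5.73 in wild type at 12 h, 140 ± 16.2 in the inducible line at 0 h and 200 ± 31.6 at 12 h, so that the lines differed at SPCH before treatment. The libraries held 16251477 to 22944391 reads assigned to genes. The labels put replicates 1 and 2 in one sequencing lane and replicates 3 and 4 in another. Whether libraries within a group stem from separate cultures is not said there, so the spread of these libraries may be technical in part. Each SE rests on 1 spread per gene, pooled over all 4 groups and moderated across genes. A wild-type SE thus also carries the spread of the inducible line. The tissue is whole seedling, and fewer cells of a type and less RNA per cell cannot be told apart. All 8 root markers, 6 green tissue markers and 4 guard cell markers were read in every group, and their summed levels overlapped between the groups.

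One library has to be named before the values. In the inducible line at 12 h, replicate 4 was the lowest library of its group for 8 of the 10 genes, all but PDC2 and LDH1, while 26.4% of all tested genes were lowest there. For PDC2 it was the highest. It was also the lowest for 26 of 38 other genes known to rise in low oxygen. Over all genes it did not stand apart by its root-mean-square log2 distance from the mean of the other 3 libraries of its group. This was 0.564, where the same distance ranged from 0.523 to 0.672 over the 16 libraries. Its summed root markers were the lowest of its group (1297, against 1599.5 to 1987 in the other 3) and its summed green tissue markers the highest (298338, against 217483 to 230050.3). In every group the summed root markers of replicates 3 and 4, both from lane 2, lay below those of replicates 1 and 2. Inducible-line replicate 3 at 0 h stood at 1312. The part of these marker differences in the gene values was not tested. Values without it are given beside those that it moved most.

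**Figure D1:**
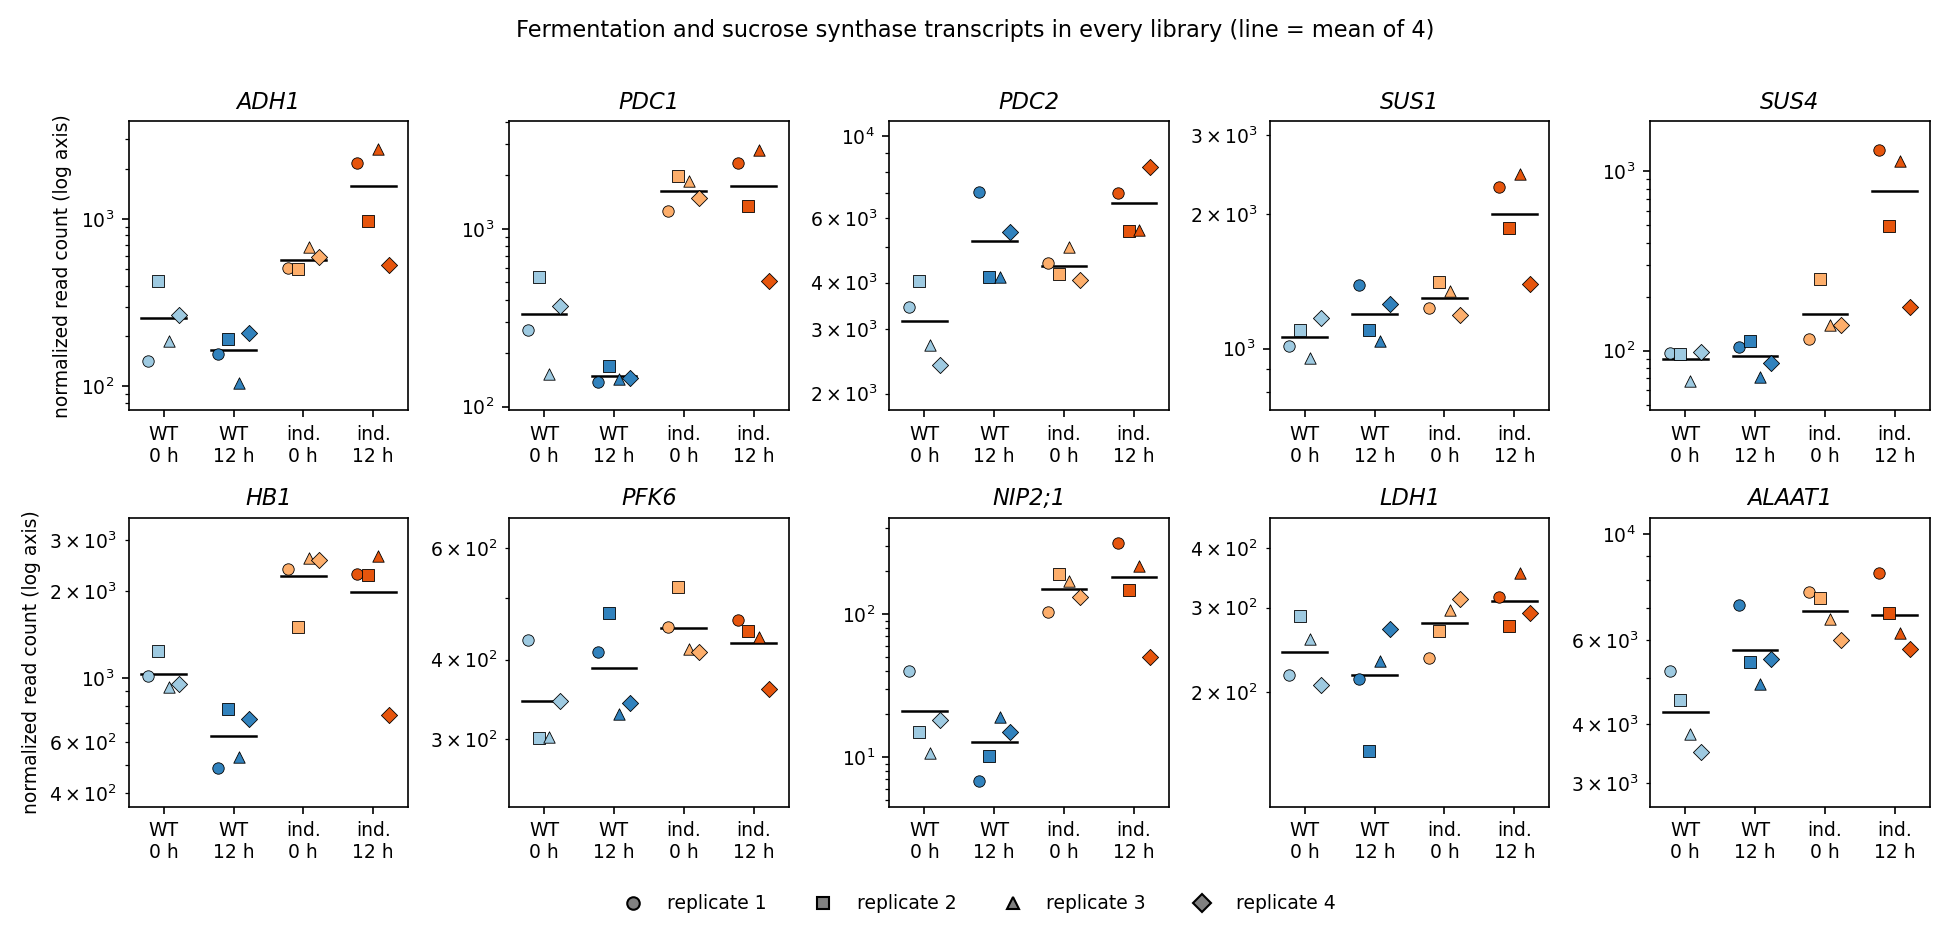
Normalized read count (log axis, its own range for each gene) of the 10 genes in every library, grouped by line and time; symbols are replicates 1 to 4 and the line is the mean of 4. ADH1, PDC1, SUS4 and NIP2;1 of the inducible line lie above every wild-type library of the same time. In the inducible line at 12 h replicate 4 is the lowest library, and replicate 2 the next lowest, for ADH1, PDC1, SUS4, HB1 and NIP2;1.

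The ethanol branch was read at high level through PDC2 and at line-dependent level through PDC1 and ADH1. PDC1 (AT4G33070, chromosome 4 from 15952257 to 15954803, TAIR10.1) stood at 269.8, 537, 152 and 368 in wild type at 0 h and at 138, 169, 143 and 145 at 12 h. In the inducible line it stood at 1254, 1978, 1852 and 1482 at 0 h and at 2358, 1344, 2769 and 507 at 12 h. Every inducible-line library at 0 h lay above every wild-type library, and at 12 h this held too, with replicate 4 nearest to wild type. The difference between lines was 2.42 (SE 0.45) at 0 h, 5.37-fold, and 3.28 (SE 0.45) at 12 h, 9.74-fold. Over time PDC1 was lower by mean in wild type, -1.01 (SE 0.45), although replicate 3 at 0 h lay within the 12 h values. In the inducible line it had -0.15 (SE 0.45) over time with all libraries and 0.35 without replicate 4, so the sign rested on that library.

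ADH1 (AT1G77120, chromosome 1 from 28975255 to 28977417), the single classical alcohol dehydrogenase of Arabidopsis, was read at 142, 427, 186 and 269 in wild type at 0 h and at 155, 192, 105 and 208 at 12 h. For the inducible line the counts were 511, 503, 679.8 and 591 at 0 h and 2155, 974.8, 2618 and 533 at 12 h. The 0 h libraries of the inducible line lay close together and above all of wild type, while at 12 h its highest library was 4.91 times its lowest. The lines differed by 1.27 (SE 0.44) at 0 h and by 3.02 (SE 0.44), 8.13-fold, at 12 h. The change over time was 1.21 (SE 0.44) in the inducible line and -0.55 (SE 0.44) in wild type. Replicate 4 at 12 h lay within the 0 h range, and without it the inducible line's change was 1.64 and the mean at 12 h was 1916 ± 847 (SD, n = 3) in place of 1570.3 ± 978. ADH1 overlaps AT1G77122 on the opposite strand over 61 bases, and how strand was treated in counting is not given in the sources used here.

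PDC2 (AT5G54960, chromosome 5 from 22310553 to 22312832), the pyruvate decarboxylase paralog that Arabidopsis leaves express without stress, behaved unlike PDC1. Its wild-type counts were 3442, 4033, 2708 and 2396 at 0 h and 7032, 4152, 4154 and 5487 at 12 h. Its inducible-line counts were 4516, 4217, 5005 and 4068 at 0 h and 6992, 5515, 5574 and 8244 at 12 h. In both lines each 12 h library lay above each 0 h library, so that PDC2 separated the times, whereas PDC1 and ADH1 separated the lines. The change over time was 0.72 (SE 0.19) in wild type and 0.55 (SE 0.19) in the inducible line, 1.65-fold and 1.46-fold. Between the lines PDC2 differed by 0.53 (SE 0.19) at 0 h, where the groups did not overlap, and by 0.35 (SE 0.19) at 12 h, where they did. The mRNAs of PDC1 and PDC2 were identical at 73.6% of 2186 aligned bases and shared no stretch of 50 bases.

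Per kilobase of exon, a scale on which genes can be set beside each other, PDC2 stood at 1379 ± 323 normalized counts in wild type at 0 h and at 2887 ± 571 in the inducible line at 12 h. PDC1 stood on that scale at 150 ± 73.7 and 788 ± 461, and ADH1 at 160.4 ± 78.7 and 985 ± 613, in the same groups. PDC2 was thus the most abundant of the 3 ethanol-branch transcripts in every group by mean. The remaining paralogs PDC3 and PDC4 stood at 45.4 ± 14.2 and 15.9 ± 4.99 per kilobase in wild type at 0 h, and neither was called in any comparison. None of 4 genes of acetaldehyde and ethanol use (GSNOR, ALDH2B7, ALDH2B4 and ACS) was called either.

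Among the sucrose synthases SUS4 had the widest span over the groups. SUS4 (AT3G43190, chromosome 3 from 15179010 to 15184105) was read at 97.2, 96.3, 67.3 and 98.7 in wild type at 0 h and at 104, 114, 71.3 and 85.1 at 12 h. Its inducible-line counts were 116, 250.5, 139 and 138 at 0 h and 1307, 495, 1143 and 176 at 12 h. The wild-type groups overlapped almost fully, each inducible-line group lay above wild type of the same time, and replicate 4 at 12 h lay inside the 0 h range of its own line. SUS4 changed by 0.05 (SE 0.47) over time in wild type and by 1.96 (SE 0.47), 3.89-fold, in the inducible line, where the value was 2.55 without replicate 4. The difference between lines was 0.79 (SE 0.47) at 0 h and 2.69 (SE 0.47), 6.47-fold, at 12 h, and without replicate 4 the latter was 3.28.

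SUS1 (AT5G20830, chromosome 5 from 7050217 to 7055398) took part in the same pattern over a narrower range. Its counts were 1012, 1103, 954 and 1172 in wild type at 0 h and 1390.3, 1098, 1039 and 1261 at 12 h. Inducible-line counts were 1234, 1408, 1348 and 1190.2 at 0 h and 2295, 1857, 2457 and 1392 at 12 h. The lines did not overlap at either time, but came close: the lowest inducible-line library at 12 h, replicate 4, stood at 1391.8 and the highest wild-type library at 1390.3. SUS1 changed over time by 0.17 (SE 0.15) in wild type and by 0.60 (SE 0.15) in the inducible line, and the lines differed by 0.29 (SE 0.15) at 0 h and 0.72 (SE 0.15) at 12 h. SUS1 and SUS4 mRNAs were identical at 81.4% of 2865 aligned bases, without a shared 50-base stretch. Per kilobase SUS1 was the more abundant in every group by mean, at 285 ± 25.9 against 30.5 ± 5.11 for SUS4 in wild type at 0 h and at 537 ± 128 against 265 ± 181 in the inducible line at 12 h.

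Of the other 4 sucrose synthases, SUS3 rose over 12 h in both lines, by 0.87 (SE 0.21, limma adjusted p = 0.0285) in wild type and by 0.86 (SE 0.21, limma adjusted p = 0.0244) in the inducible line. It was a minor transcript, at 15.7 ± 3.04 per kilobase in wild type at 0 h and 44.8 ± 10.6 in the inducible line at 12 h. SUS2, SUS5 and SUS6 were not called in any comparison. Among 5 tested invertases, which cleave sucrose without UDP, the cytosolic CINV2 fell in both lines, with -0.59 (SE 0.13, limma adjusted p = 0.0181) in wild type and -0.54 (SE 0.13, limma adjusted p = 0.0213) in the inducible line. The vacuolar VIN1 fell in the inducible line (-0.62, SE 0.15, limma adjusted p = 0.0185) and had 0.30 (SE 0.15, limma adjusted p = 0.269) in wild type. The difference of these changes was -0.92 (SE 0.21, limma adjusted p = 0.0602). VIN1 was lower in the inducible line than in wild type at 12 h (-0.65, SE 0.15, limma adjusted p = 0.0185).

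HB1 (AT2G16060, chromosome 2 from 6982531 to 6983777) separated the lines before treatment. It was read at 1018, 1239, 931 and 954 in wild type at 0 h and at 489, 782, 535 and 721 at 12 h. Inducible-line libraries had 2378, 1498, 2604 and 2559 at 0 h and 2288, 2265, 2632 and 746 at 12 h. In wild type all 12 h libraries lay below all 0 h libraries, and in the inducible line replicates 1 and 2 at 12 h lay within the 0 h range, replicate 3 just above it and replicate 4 inside the wild-type 12 h range. The lines differed by 1.10 (SE 0.32) at 0 h and by 1.53 (SE 0.32) at 12 h. HB1 changed over time by -0.73 (SE 0.32) in wild type and by -0.31 (SE 0.32) in the inducible line, where the value without replicate 4 was 0.11. The paralogs HB2 and GLB3 were not called in any comparison. Per kilobase HB2 stood at 961 ± 107 in wild type at 0 h, close to HB1 at 1047 ± 142, whereas in the inducible line at 0 h HB1 stood at 2285 ± 523 and HB2 at 714 ± 178.

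NIP2;1 (AT2G34390, chromosome 2 from 14514487 to 14515988) had the lowest counts of the 10 in wild type and, with both lanes together, the largest difference between the lines. In lane 2 alone at 12 h its difference, 2.56, was below those of PDC1 (3.03) and ADH1 (2.99). It was read at 40.0, 15.1, 10.7 and 18.0 in wild type at 0 h and at 6.804, 10.2, 19.1 and 14.96 at 12 h. The inducible line had 103, 191, 169.7 and 132 at 0 h and 312, 147, 218 and 50.025 at 12 h. No library of the inducible line came down to the highest wild-type library at 40.0, although replicate 4 at 12 h came near it. The lines differed by 2.90 (SE 0.48), 7.45-fold, at 0 h and by 3.54 (SE 0.48), 11.7-fold, at 12 h. Over time NIP2;1 had 0.05 (SE 0.48) in the inducible line and 0.57 without replicate 4, and -0.60 (SE 0.48) in wild type. Within lanes the inducible line's change was 0.61 in lane 1 and -0.51 in lane 2, which holds replicate 4. The gene shares 12.6% of its 50-base windows with AT2G29870, which was read in 1 library at 0.893, and it overlaps AT2G34380 on the other strand over 30 bases. A long non-coding RNA gene, AT2G08660, is annotated on the opposite strand over 1432 of the 1502 bases of NIP2;1 and was not analysed here, so reads of this antisense RNA and of NIP2;1 may not be separated.

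LDH1 (AT4G17260, chromosome 4 from 9673897 to 9675540) stood at 243 ± 37.7 in wild type at 0 h, 217 ± 50.4 at 12 h, 278 ± 34.0 in the inducible line at 0 h and 309 ± 34.6 at 12 h. The groups overlapped except between the lines at 12 h, where the lowest inducible-line library (274) lay just above the highest wild-type library (271). The lines differed by 0.20 (SE 0.17) at 0 h and 0.54 (SE 0.17) at 12 h, so the enzyme of the lactate branch moved far less than the channel. Of 6 other tested NIP channels, NIP1;1 fell in the inducible line over time (-0.82, SE 0.15, limma adjusted p = 0.00273) and was lower there than in wild type at 12 h (-0.79, SE 0.15, limma adjusted p = 0.00574). No other NIP channel was called.

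ALAAT1 (AT1G17290, chromosome 1 from 5922332 to 5926400) was among the most abundant of the 10 genes in all groups, at 1781 ± 309 per kilobase in wild type at 0 h. Its counts were 5151, 4479, 3816 and 3497 in wild type at 0 h and 7089.7, 5391, 4851 and 5473 at 12 h. Those of the inducible line were 7582, 7357, 6643 and 6008 at 0 h and 8301, 6841, 6219 and 5744 at 12 h. The 0 h groups of the lines did not overlap, and at 12 h wild type reached into the range of the inducible line. The lines differed by 0.71 (SE 0.15) at 0 h and by 0.25 (SE 0.15) at 12 h, and the change over time was 0.43 (SE 0.15) in wild type and -0.03 (SE 0.15) in the inducible line. None of 7 genes of alanine and GABA metabolism, ALAAT2 among them, was called in any comparison.

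PFK6 (AT4G32840, chromosome 4 from 15844576 to 15848552) was the one gene of the 10 whose 4 groups all overlapped. It stood at 344 ± 59.8 in wild type at 0 h, 389 ± 67.6 at 12 h, 449 ± 50.9 in the inducible line at 0 h and 425 ± 45.1 at 12 h. The difference between lines was 0.39 (SE 0.15) at 0 h and 0.14 (SE 0.15) at 12 h. PFK6 overlaps AT4G32830 on the opposite strand over 290 bases, and that gene was read at 147 to 392 in the 16 libraries, so reads of the pair may not be separated. Among 6 other ATP-dependent phosphofructokinases PFK7 rose in both lines (0.41, SE 0.11, limma adjusted p = 0.039 in wild type; 0.49, SE 0.11, limma adjusted p = 0.012 in the inducible line). Among 4 PPi-dependent phosphofructokinases PFPA2 fell in wild type (-0.52, SE 0.14, limma adjusted p = 0.0408), and no other call was made in that list. Of 22 further genes of cytosolic glycolysis, from hexokinase to pyruvate kinase, 1 was called, the pyruvate kinase gene AT2G36580, which rose by 0.82 (SE 0.14, limma adjusted p = 0.00254) in wild type and by 0.69 (SE 0.14, limma adjusted p = 0.00489) in the inducible line. The other 21 were not called in any comparison.

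**Figure D2:**
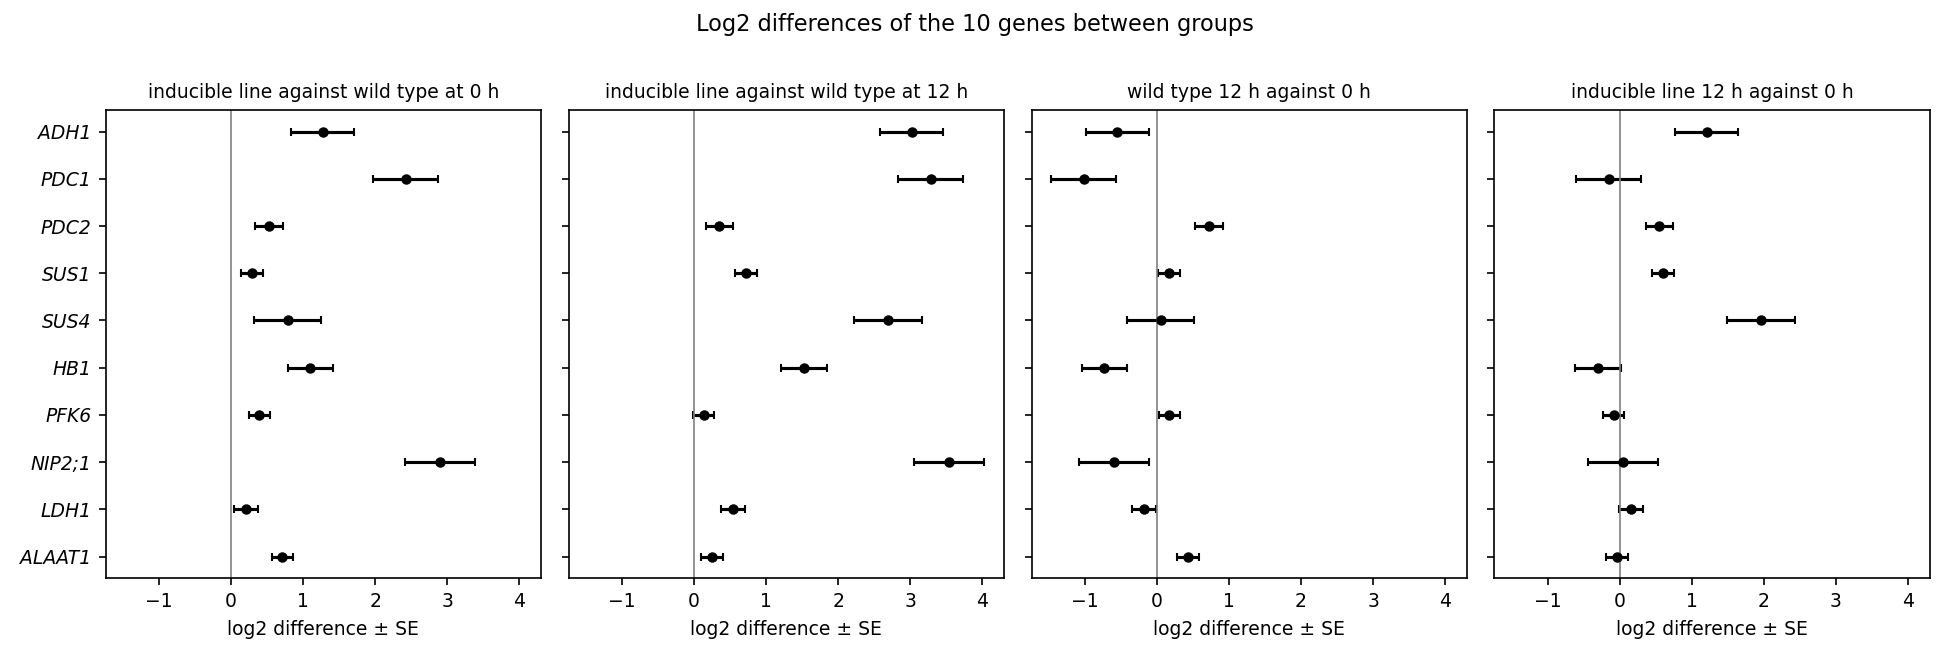
Log2 difference of each of the 10 genes in 4 comparisons; points are limma estimates over 16 libraries on the log2(normalized count + 1) scale and bars are ± 1 SE. At 12 h the inducible line minus wild type reached 3.54 for NIP2;1, 3.28 for PDC1, 3.02 for ADH1 and 2.69 for SUS4, while in wild type over time PDC2 stood at 0.72 and PDC1 at -1.01.

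Set side by side, the 10 genes had a positive difference between the lines at both times, with a median of 0.75 at 0 h and 1.12 at 12 h, where the medians over all tested genes were 0.0021 and 0.011. At an adjusted p below 0.05 limma called 3 of them higher in the inducible line at 0 h (PDC1, NIP2;1 and ALAAT1), where 1.42% of the tested genes were called higher, 0.573% lower and 1.99% in either direction. At 12 h it called 6 higher (ADH1, PDC1, SUS1, SUS4, HB1 and NIP2;1), where 1.2% of the tested genes were called higher, 2.2% lower and 3.4% in either direction. None of the 10 was called lower at either time. Between the lines 8 genes had all libraries of the inducible line above all of wild type at 0 h, against 4.56% of tested genes, and 6 had this at 12 h, against 4.29%. None lay wholly below, where 3.97% of tested genes did at 0 h and 5.35% at 12 h. With the replicate number as a block PFK6 was called as well at 0 h. Of the 3 called at 0 h, ALAAT1 lost its call without inducible-line replicate 1, 2 or 3 or wild-type replicate 3 or 4 at 0 h, and PDC1 without inducible-line replicate 3 or 4 at 0 h, so that NIP2;1 alone was called without replicate 3. PFK6 was called without wild-type replicate 1 at 0 h, and HB1 without inducible-line replicate 4 at 12 h. At 12 h the count was 6 with each of the 16 libraries left out in turn. The differences between the lines had the same sign in each lane for all 10 genes at both times. In lane 1 and lane 2 alone they were 2.05 and 2.80 for PDC1 at 0 h, 2.46 and 3.34 for NIP2;1 at 0 h, 3.53 and 3.03 for PDC1 at 12 h, 3.06 and 2.99 for ADH1 at 12 h, 2.87 and 2.51 for SUS4 at 12 h, and 4.52 and 2.56 for NIP2;1 at 12 h. Without inducible-line replicate 4 at 12 h the differences at 12 h were 4.07 for NIP2;1, 3.79 for PDC1, 3.46 for ADH1, 3.28 for SUS4 and 1.95 for HB1. LDH1 at 0 h had 0.0044 in lane 1. In lane 1 alone 0 were called at 0 h and 5 at 12 h, and in lane 2 alone 3 at 0 h and 0 at 12 h. Each of these fits had 2 libraries a group.

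Over time 1 of the 10 was called in wild type (PDC2, higher), where 2.27% of tested genes were called higher, 2.45% lower and 4.72% in either direction. In the inducible line 2 were called (SUS1 and SUS4, higher), where 1.44% were called higher, 3.68% lower and 5.12% in either direction. The medians of the 10 were -0.065 and 0.10. With the replicate number as a block the count in wild type was 2, with ALAAT1 added. PDC2 lost its call without inducible-line replicate 1 or 4 at 0 h, wild-type replicate 3 or 4 at 0 h, or wild-type replicate 1 or 4 at 12 h. The count in wild type was 2 without wild-type replicate 1 at 0 h, with ALAAT1, or without inducible-line replicate 4 at 12 h, with HB1 as a lower gene. In the inducible line the count was 0 without replicate 1, 3 or 4 at 0 h or without replicate 1 or 3 at 12 h, and 1 without replicate 2 at 12 h. It was 3 without replicate 4 at 12 h, when ADH1 was added. PDC2 alone had no overlap between times in the higher direction, in wild type (4.46% of tested genes) and in the inducible line (5.72%), and HB1 alone in the lower direction, in wild type (4.76%). None had this in the inducible line (7.32%). In lane 1 and lane 2 alone PDC2 changed by 0.54 and 0.91 in wild type, and in the inducible line SUS4 changed by 2.23 and 1.69, SUS1 by 0.65 and 0.55 and ADH1 by 1.51 and 0.90. Changes over time whose sign differed between lane 1 and lane 2 were those of PDC1 (0.18 and -0.48), HB1 (0.27 and -0.88), NIP2;1 and ALAAT1 (0.013 and -0.080) in the inducible line, and of SUS4 (0.17 and -0.065), NIP2;1 (-1.46 and 0.26) and LDH1 (-0.48 and 0.12) in wild type.

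The line-by-time interaction, which subtracts the wild-type change from the inducible-line change, was largest for SUS4 at 1.91 (SE 0.66) and ADH1 at 1.75 (SE 0.62), followed by PDC1 at 0.86 (SE 0.64). It was lowest for ALAAT1 at -0.46 (SE 0.21). None of the 10 was called by limma or edgeR, where limma called 0.511% of the tested genes in either direction (0.0964% higher and 0.414% lower), and 1 (SUS4) was called by DESeq2. Without inducible-line replicate 4 at 12 h SUS4 had 2.50, ADH1 2.18, PDC1 1.37, NIP2;1 1.17 (0.65 with all libraries) and HB1 0.84 (0.42 with all libraries), and SUS4 was called. In lane 1 and lane 2 alone SUS4 had 2.06 and 1.75, and ADH1 2.02 and 1.49. NIP2;1, HB1 and LDH1 had opposite signs in the lanes, 2.07 and -0.77 for NIP2;1, 1.13 and -0.28 for HB1 and 0.71 and -0.041 for LDH1.

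Within the inducible line at 12 h the order of the libraries was shared by some of the genes. ADH1, PDC1, SUS1 and HB1 were highest in replicate 3, then 1, then 2, then 4, and SUS4 and NIP2;1 were highest in replicate 1, then 3, then 2, then 4. PFK6 and ALAAT1 had the order 1, 2, 3, 4, PDC2 the order 4, 1, 3, 2 and LDH1 the order 3, 1, 4, 2. The highest library was 7.43 times the lowest for SUS4, 6.24 times for NIP2;1, 5.47 times for PDC1, 4.91 times for ADH1 and 3.53 times for HB1, but 1.29 times for PFK6 and LDH1. Replicates 3 and 4 came from the same lane, and the lane term therefore does not part them. In the other groups PDC1 had ratios of 3.54, 1.22 and 1.58 for wild type at 0 h, wild type at 12 h and the inducible line at 0 h.

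**Figure D3:**
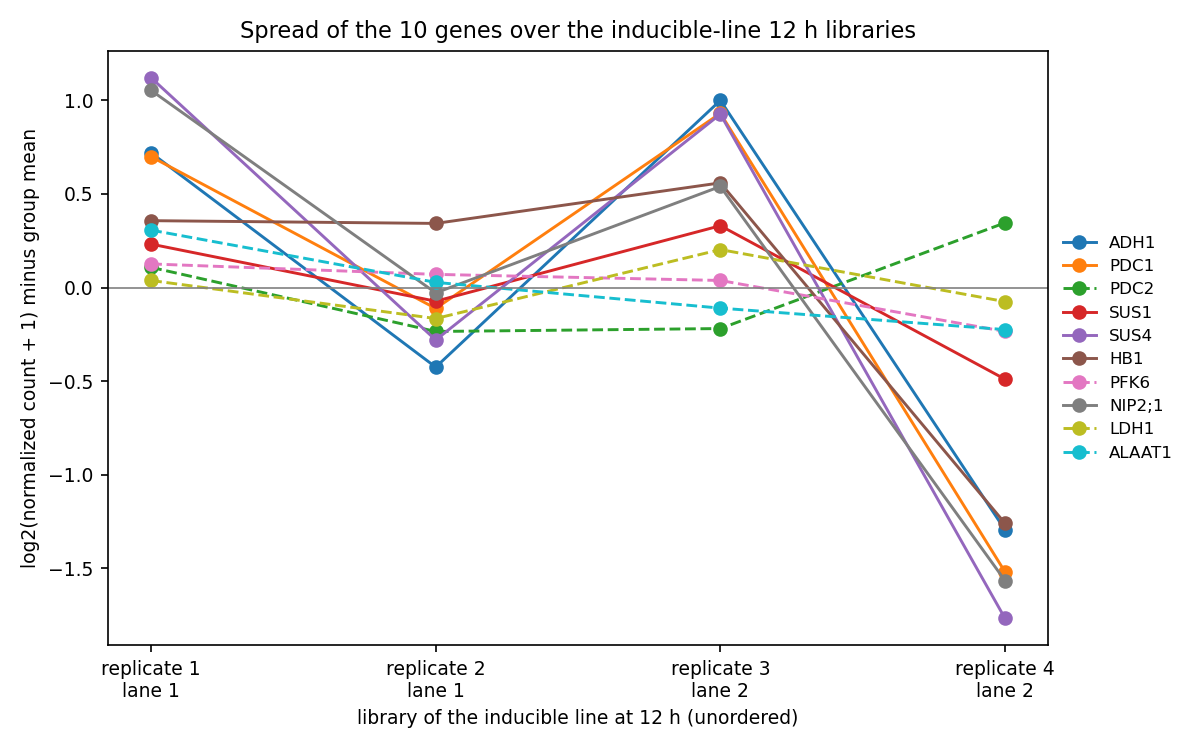
Deviation of each of the 10 genes from its group mean, in log2(normalized count + 1), in the 4 libraries of the inducible line at 12 h; the libraries have no order and lines only join the values of 1 gene. ADH1, PDC1, SUS4, HB1 and NIP2;1 lie more than 1 log2 unit below their mean in replicate 4, while PDC2 (dashed) is highest there.

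Deviations from the group means were compared over all 16 libraries as a description, in values that share their library and its depth. Among ADH1, PDC1, SUS1, SUS4, HB1 and NIP2;1 the 15 pairs had Pearson correlations from 0.37 to 0.87, with a median of 0.71, and SUS1 with SUS4 was the highest. These 6 were set apart after their values were seen. The other 30 pairs ranged from -0.64 to 0.59, with a median of 0.18, and PDC2 with PDC1 had -0.13. Of the 2 paralog pairs, SUS1 and SUS4 had 0.87 and PDC1 and PDC2 that value near 0.

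The genes most like each member over the 16 libraries, by the Pearson correlation of log2 values among all tested genes, were named by that rank alone. ACO1, an ethylene-forming oxidase gene, ranked first for ADH1 (0.91) and SUS4 (0.90). AT4G27450 ranked first for PDC1 (0.95), FTM1 (also SAD6), a stearoyl-ACP desaturase gene, for HB1 (0.94), and AT3G21020 for NIP2;1 (0.95). ACO1, AT4G27450 and FTM1 are in a list of genes known to rise in low oxygen. For PDC2 the first was AKR4C8 (0.95), for SUS1 AT5G10625 (0.88), for PFK6 DCL4 (0.93), for LDH1 AT4G37445 (0.92) and for ALAAT1 PNC2 (0.95), none of which is in that list. All of these values hold the differences between groups as well as those between libraries.

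The 10 genes were set beside 39 other genes known to rise in low oxygen, of which 38 were tested. Over 12 h, 16 of the 38 fell and 0 rose in wild type, with a median of -0.77, and 23 fell and 1 rose in the inducible line, with a median of -1.07, where the medians over all tested genes were -0.0036 and 0.0095. Over all tested genes, 2.45% were called lower and 2.27% higher in wild type, and 3.68% and 1.44% in the inducible line. The 15 that fell in both lines are 15 of the 16 in wild type and 15 of the 23 in the inducible line. HRA1, a trihelix factor that dampens the low-oxygen response, fell in both lines, with -3.49 (SE 0.24, limma adjusted p = 8.4e-07) in wild type and -3.48 (SE 0.24, limma adjusted p = 1.75e-07) in the inducible line, from 909 ± 319 to 78.1 ± 18.8 and from 1815 ± 339.5 to 165 ± 47.3. LBD41 fell with -3.24 (SE 0.31, limma adjusted p = 3.56e-05) and -2.90 (SE 0.31, limma adjusted p = 3.06e-05). None of the 10 members was called lower over time in either line. The gene that rose, ACO1, had 1.30 (SE 0.24, limma adjusted p = 0.00246) in the inducible line. The count in wild type was 10 without wild-type replicate 4 at 0 h, and 8 in lane 2 alone; in the inducible line it was 15 in lane 2 alone, both directions together.

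**Figure D4:**
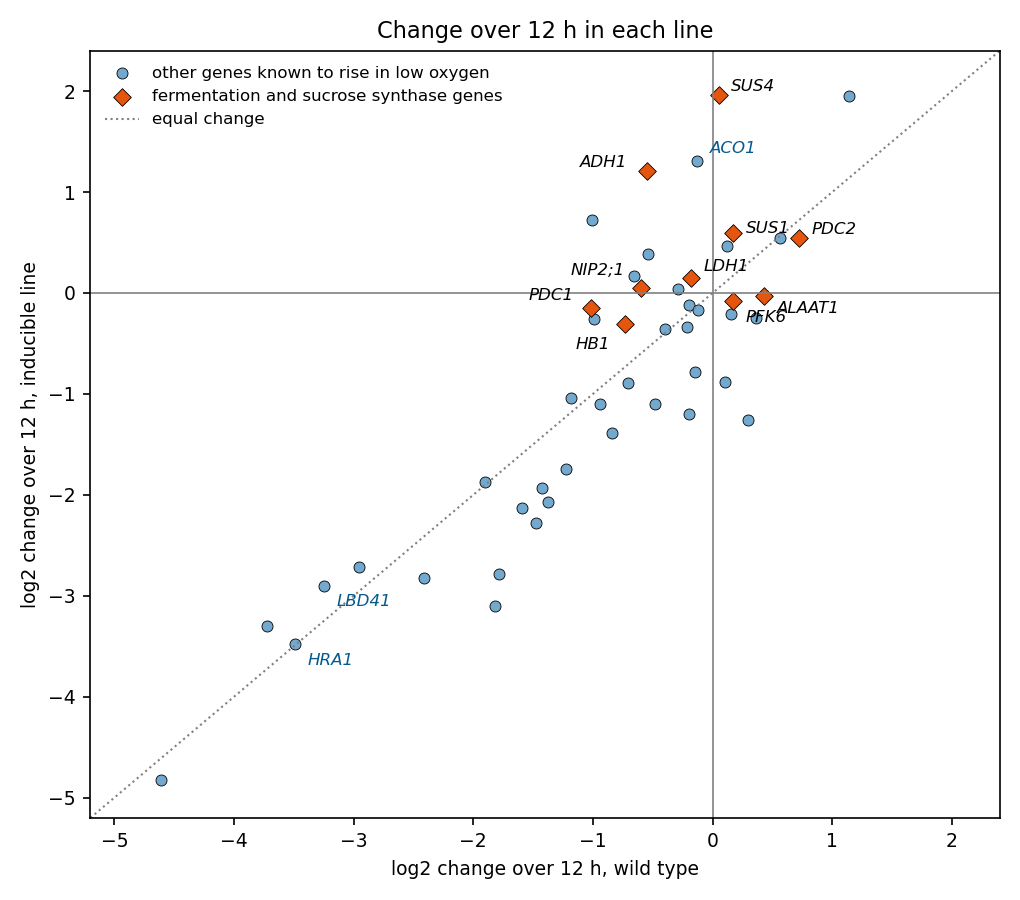
Log2 change over 12 h in wild type (x axis) and in the inducible line (y axis) of the 10 genes (diamonds) and of 38 other genes known to rise in low oxygen (circles); the dotted line is equal change. HRA1 and LBD41 lie at the lower left near the line, while ADH1 (-0.55 and 1.21) and SUS4 (0.05 and 1.96) lie above it.

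Between the lines, 12 of the 38 were higher in the inducible line at 0 h and 0 lower, with a median of 0.94, and 15 were higher and 0 lower at 12 h, with a median of 0.95. Over all tested genes, 1.42% were called higher and 0.573% lower at 0 h, and 1.2% and 2.2% at 12 h. All 38 had a positive difference at 0 h and 34 had one at 12 h. The 4 called at both times are 4 of the 12 and 4 of the 15. The list and the 10 members thus both had positive medians between the lines before dexamethasone was given. Over time in the inducible line the list had a median of -1.07 and the 10 members one of 0.10. Not all of the list fell there: 30 of the 38 had a negative change, while FTM1, for example, had means of 775 at 0 h and 974 at 12 h. With the replicate number as a block 24 were called at 0 h. The count at 0 h was 7, 4 and 5 without inducible-line replicates 1, 3 and 4, 4 and 5 without wild-type replicates 3 and 4, and 0 in lane 1 alone. At 12 h it was 8, 8 and 7 without inducible-line replicates 1, 2 and 3, 7 without wild-type replicate 1, and 2 in lane 2 alone. None of 11 mostly constitutive regulators of oxygen sensing, RAP2.2 and RAP2.12 among them, was called in any comparison.

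Sugar starvation markers and tissue markers were read beside the 10 genes. DIN2 rose in both lines, by 1.49 (SE 0.33, limma adjusted p = 0.0151) in wild type and 1.59 (SE 0.33, limma adjusted p = 0.00632) in the inducible line, and was higher in the inducible line at both times. KMD1 fell in both, with -0.90 (SE 0.23, limma adjusted p = 0.0321) and -1.56 (SE 0.23, limma adjusted p = 0.000401). DIN10 fell in the inducible line (-0.93, SE 0.21, limma adjusted p = 0.0116), and DIN1 and DIN6 were not called. Of 8 root markers 0 were called, with summed levels of 1508 to 2379.6 in wild type at 0 h, 1539.7 to 2329 at 12 h, 1312 to 2192 in the inducible line at 0 h and 1297 to 1987 at 12 h. Of 4 guard cell markers 0 were called, and of 6 green tissue markers 1, LHCB2.1, fell in the inducible line (-0.71, SE 0.18, limma adjusted p = 0.025) and was lower there than in wild type at 12 h (-0.75, SE 0.18, limma adjusted p = 0.0238). The part of tissue makeup or of sugar supply in the values of the 10 genes was not tested.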

How the data were processed

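Poly-A RNA of whole seedlings was sequenced in 16 libraries. Per the submitters' processing notes, TopHat, SAMtools, HTSeq and DESeq2 were used with the TAIR10 build; no versions are named, and how the counting treated strand and multiply aligned reads is not given in the sources used here. Deposited signal values, 1 column per library, are reads per gene that the authors divided by 1 size factor per library, as read from the values: with 1 step per column, 100% of them came out whole to within 0.01 read. The planned main test was limma 3.58.1 in R 4.3.3 on log2(normalized count + 1), with trend and robust moderation, over the 20756 of 33602 genes with at least 10 in at least 4 libraries, as 1 fit of 4 group means. Benjamini-Hochberg adjustment ran over all tested genes, with a threshold of 0.05. Fold changes on this scale understate the change of low genes. edgeR 4.0.16 (quasi-likelihood, TMM) and DESeq2 1.42.0 were run on the recovered reads as alternatives, beside the replicate block, a lane term, single lanes, a pseudocount of 8, no filter, the compared groups alone and each library left out. The fit was tested on simulated data.

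The members and the gene lists were chosen with earlier results of these data known. Named are the members, up to 3 called genes per list with the smallest adjusted p over time in each line, paralogs, HRA1 and LBD41, and the 3 genes most like each member. The main fit was unpaired, and replicate numbers entered only as a block in an alternative fit. Deviations of same-numbered libraries correlated at 0.52 to 0.72 in all 24 pairs of groups and numbers. Only 11 of the 24 correlated best with their own number, so these correlations do not show pairing by number. The labels tie the numbers only to the lanes. Symbols, positions and promoters came from RefSeq on TAIR10.1, which matched 32835 of the 33602 loci. A count of 0 allows up to 3 reads, at most 1.85e-05% of a library, for counting error only.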

Additional observations from a re-analysis of the deposited data

Results flagged for a closer look

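In the 40 combinations of a member and a group, 2 libraries stood far from the other 3 by Dixon's measure, the gap to the nearest library over the range of the group, and chance flags about 1 in 20 such combinations. SUS4 in wild type at 0 h had its lowest library in replicate 3 at 67.3, with the other 3 from 96.3 to 98.7. SUS4 in the inducible line at 0 h had its highest library in replicate 2 at 250.5, with the others from 116 to 139. The low replicate 4 of the inducible line at 12 h did not meet this measure, taken on normalized counts, for any member. Replicates 1, 2 and 3 were spread out too for some members, such as ADH1 (1916 ± 847, SD). For HB1 they lay closer together, at 2395 ± 206 (SD) against 746 in replicate 4. The measure was not taken on the log2 scale.

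ACR7 (AT4G22780) was the one gene of the low-oxygen list whose change over 12 h differed between the lines past the threshold, with a line-by-time interaction of -1.002 (SE 0.20, limma adjusted p = 0.0335). It fell from 586 ± 73.8 to 253 ± 21.4 in the inducible line and stood at 265 ± 42.2 and 230.1 ± 35.5 in wild type. That call was lost in 9 of the 16 fits that leave out 1 library: inducible-line replicate 2, 3 or 4 at 0 h, inducible-line replicate 2, 3 or 4 at 12 h, wild-type replicate 3 at 0 h and wild-type replicate 2 or 3 at 12 h. Over these 16 fits limma's adjusted p ranged from 0.0293 to 0.0915.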

How the results depend on the processing

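The 10 genes' log2 differences were recomputed in 1240 alternative values. None of those past the threshold changed sign, 1224 lay within 1 SD of the reported value, and the 16 that moved were all in fits of a single lane, which hold 2 libraries a group. Counts past the threshold depended on the model more than the values did. For wild type over time, 980 genes, 1 member and 16 genes of the low-oxygen list were called. The replicate block gave 2751 genes and 2 members, the lane term 3014 and 2, DESeq2 1808 genes, no filter 0 members, the compared groups alone 315 and 0, lane 1 alone 187 and 0, and lane 2 alone 8 of the list. For the inducible line over time (1063 genes, 2 members, 24 of the list), the replicate block gave 1843 genes, the lane term 1921 and DESeq2 3 members. The compared groups alone gave 0 members, lane 1 alone 367 genes and 1 member, and lane 2 alone 0 members and 15 of the list. For the lines at 0 h (414, 3 and 12), the replicate block gave 2351, 4 and 24, the lane term 2641, 4 and 25, and DESeq2 1360, 4 and 21. The compared groups alone gave 138 genes, lane 1 alone 1 gene, 0 members and 0 of the list, and lane 2 alone 1846 genes and 3 members. For the lines at 12 h (706, 6 and 15), the replicate block gave 1332 genes, the lane term 1414 and 7 members, and DESeq2 1120 genes. The block, the lane term and DESeq2 each called 1 gene of the list lower. The compared groups alone gave 3 members and 8 of the list, lane 1 alone 175 genes and 5 members, and lane 2 alone 437 genes, 0 members and 2 of the list. For the interaction (106, 0 and 1), the replicate block gave 518 genes and 3 of the list, the lane term 586 and 4, DESeq2 388, 1 member and 4 of the list, lane 1 alone 3 genes and 0 of the list, and lane 2 alone 0 of the list. The interaction has no fit with compared groups alone, since it uses all 4. The block changed no other call of a member than those of ALAAT1 in wild type over time and PFK6 at 0 h. The cause of these differences was not tested.

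Leaving out each library in turn gave, for wild type over time, 476 to 1889 genes, 0 to 2 members and 10 to 18 of the list. It gave 746 to 1175, 0 to 3 and 19 to 24 for the inducible line over time, and 120 to 1803, 1 to 4 and 4 to 16 for the lines at 0 h. It gave 428 to 800, 6 to 6 and 7 to 18 for the lines at 12 h, and 53 to 454, 0 to 1 and 0 to 5 for the interaction. The highest gene counts in wild type over time, at 0 h and in the interaction came without wild-type replicate 1 at 0 h, and the lowest without wild-type replicate 4 at 0 h, inducible-line replicate 4 at 0 h and inducible-line replicate 3 at 12 h. Low members such as NIP2;1 in wild type, at 6.804 to 40.0 normalized counts, are limited by depth.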

Other observations

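PDC2 was most like genes outside the low-oxygen list. Their group means were higher at 12 h than at 0 h in both lines, and higher in the inducible line at both times. CAX7, a calcium exchanger gene and the second most like PDC2 (Pearson correlation 0.94 over 16 libraries), stood at 304 and 621 in wild type and at 497 and 807 in the inducible line, at 0 h and 12 h. CSLG2, a cellulose synthase-like gene and the third (0.93), stood at 10.9 and 66.2 in wild type and at 31.99 and 95.7 in the inducible line. AKR4C8, an aldo-keto reductase gene and the first (0.95), stood at 1244 and 1747 in wild type and at 1650.4 and 2251 in the inducible line. These are group means of normalized counts, chosen for their likeness, and no test was made of them.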
